A study of Mus musculus with 2 samples.

Results

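Chemokine ligands and chemokine receptors were examined in the brown fat of young mice, taken from the interscapular depot (iBAT) whose cells burn lipid to make heat. Members were chosen by symbol alone: every row of both deposited gene tables that starts with Ccl, Cxcl, Xcl, Cx3cl, Ccr, Cxcr, Xcr, Cx3cr or Ackr followed by a digit. This gave 65 of 27179 genes. Of these, 42 were ligands (24 CC, 13 CXC, the C ligand Xcl1, the CX3C ligand Cx3cl1 and 3 Ccl19 pseudogenes) and 23 were receptors (11 CC, 6 CXC, 4 atypical, Xcr1 and Cx3cr1).

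Chemokines are small secreted proteins that steer the migration of leukocytes along concentration gradients. CC and CXC families differ in the spacing of the cysteines near the start of the protein, and their receptors are G protein-coupled. Inflammatory chemokines such as CCL2 and CXCL10 are switched on by cytokines, NF-kB or interferon signalling, homeostatic ones such as CXCL12 are made constitutively by stromal cells, and atypical receptors bind chemokines without classical G protein signalling and remove or transport them. In adipose tissue, CCL2 and its receptor CCR2 are best known for the recruitment of monocytes.

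The study compared wild-type mice with mice that lack uncoupling protein 1 (Ucp1-KO), the mitochondrial protein through which brown fat releases energy as heat. Both groups were untreated C57BL/6N mice of 20 days, given as male, and each genotype had 1 library made from the pooled iBAT of 3 animals. The values are whole-number read counts per gene from poly(A)-enriched, strand-specific RNA libraries, with 52950913 counts in total in wild-type against 53216727 in Ucp1-KO. The design therefore has no replicates, no tests and no standard deviations: every difference given here is between these 2 libraries and may include differences between pools of animals.

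Scaling used median-of-ratios size factors, and the log2 ratio is log2 of Ucp1-KO over wild-type normalised counts with a pseudocount of 0.5. Paired counts and shares are always given for wild-type before Ucp1-KO. Square brackets give 95% counting intervals, which were taken on read pairs and cover counting error only. A gene was examined when its mean normalised count reached 10, which 15212 genes did, and a gene was called higher or lower when it differed at least 2-fold. Where a library had 0 counts, its limit was set at 3 read pairs, which is 0.113 CPM (read counts scaled to equal totals). A fold against that limit leaves out the counting error of the other library.

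Some facts of the libraries touch every value. Ucp1 itself had 366473 wild-type and 37853 Ucp1-KO counts (log2 ratio -2.98). Mitochondrially encoded genes took a share of 22.4% in wild-type and 36.7% in Ucp1-KO. CPM values rest on total counts, whereas log2 ratios and medians rest on size factors. Scaling by totals put the median log2 ratio of all genes examined at -0.31, so sums in CPM read lower in Ucp1-KO than by size factors. The 4 Y-linked genes listed (Ddx3y, Uty, Kdm5d and Eif2s3y) summed to 0 in the wild-type and 99.7 CPM in the Ucp1-KO library although both pools were given as male, so genotype and the sex of the pools cannot be told apart. All 23 skeletal muscle markers examined were lower in Ucp1-KO, from 7468 to 953 CPM in sum, the largest being Pvalb at -3.92, Casq1 at -3.65 and Mylpf at -3.63 on the log2 scale. In bulk tissue, fewer cells of a type and less RNA per cell cannot be told apart.

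Promoters are shown first for the ligand with the highest ratio, Cxcl10, for its neighbour Cxcl9, which was level between the libraries, for the neutrophil attractant Cxcl1 and for the most abundant ligand, Cxcl12. Cxcl9 and Cxcl1 were added after their values were seen. Each window has 300 bases, 250 before and 50 after the RefSeq start, 5′ to 3′ on the gene's strand. It was taken from a table on build GRCm38.p6 and placed in GRCm39 by exact match. Capitals mark matches to an interferon response element (GAAANNGAAA), the NF-kB consensus or an AP-1 site (TGACTCA or TGAGTCA).
Cxcl10, chr5:92496699-92496998, minus strand: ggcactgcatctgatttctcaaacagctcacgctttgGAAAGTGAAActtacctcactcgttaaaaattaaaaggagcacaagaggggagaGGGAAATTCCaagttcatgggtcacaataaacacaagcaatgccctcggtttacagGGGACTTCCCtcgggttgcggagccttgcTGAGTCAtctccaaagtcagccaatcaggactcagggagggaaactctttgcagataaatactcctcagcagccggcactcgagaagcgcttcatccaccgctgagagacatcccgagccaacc
Cxcl9, chr5:92475889-92476188, minus strand: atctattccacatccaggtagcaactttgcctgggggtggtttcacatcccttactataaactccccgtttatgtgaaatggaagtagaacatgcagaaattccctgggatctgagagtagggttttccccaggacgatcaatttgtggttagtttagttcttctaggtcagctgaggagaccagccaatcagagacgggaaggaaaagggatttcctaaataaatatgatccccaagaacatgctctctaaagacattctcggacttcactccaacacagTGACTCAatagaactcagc
Cxcl1, chr5:91038854-91039153, plus strand: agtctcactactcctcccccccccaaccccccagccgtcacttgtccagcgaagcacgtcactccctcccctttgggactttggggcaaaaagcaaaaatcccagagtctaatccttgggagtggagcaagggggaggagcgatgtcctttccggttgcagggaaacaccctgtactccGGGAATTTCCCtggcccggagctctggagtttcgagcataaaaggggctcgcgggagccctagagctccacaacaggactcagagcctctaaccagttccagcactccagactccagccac
Cxcl12, chr6:117145246-117145545, plus strand: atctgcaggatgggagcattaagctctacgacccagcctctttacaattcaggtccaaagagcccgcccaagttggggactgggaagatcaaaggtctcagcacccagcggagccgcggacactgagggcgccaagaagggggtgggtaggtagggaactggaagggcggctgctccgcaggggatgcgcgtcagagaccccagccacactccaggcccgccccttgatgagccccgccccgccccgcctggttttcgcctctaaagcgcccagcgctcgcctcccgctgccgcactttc

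The Cxcl10 window held an interferon response element at -213 to -204, NF-kB matches at -159 to -150 and -103 to -94, and an AP-1 match at -74 to -68. Positions are in bases with the start as 1 and no 0. In Cxcl1 an NF-kB match on the plus strand, at -71 to -62, overlapped another on the minus strand, at -70 to -61. Cxcl9 held only an AP-1 match, at 32 to 38, and Cxcl12 held none of these letters. Promoter windows were matched for 47 of the 65 members, 54 windows in all, searched on both strands. Members without a window, and so not searched, include Ccl2, Ccl7, Ccl5, Ccl11, Cxcl11, Ccr7 and Ccr10. The NF-kB consensus was in 10 of the 54 windows (18.5%) against 4.51% of all 32851 promoters of the same length. The interferon response element was in 5.56% against 3.44%, the AP-1 site in 14.8% against 5.2%, the interferon-gamma type site TTCNNNGAA in 7.41% against 8.3% and the TATA box TATAAA in 27.8% against 13.6%. Members with the NF-kB match were Ackr2, Ccl20, Ccl27a, Ccl9, Ccr3, Ccr6, Cxcl1, Cxcl10, Cxcl2 and Cxcl3. Among members with a window, the NF-kB match was found in 3 of 11 that were higher in Ucp1-KO and 1 of 4 lower. It was also in 1 of 10 in between and 5 of 22 that were not examined. These matches are descriptions of the sequence and not sites of measured binding.

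To address how the family as a whole differed between genotypes, members were counted by size of difference. Of the 65 members, 17 had no count in either library and 7 had none in 1 of them, and 37 passed the minimum, 23 ligands and 14 receptors. In the Ucp1-KO library 14 of the 37 were at least 2-fold higher (37.8%), against 7.42% of all genes examined, and 7 were at least 2-fold lower (18.9%), against 9.55%. With the further condition that the counting interval leaves out 0, 13 were higher, against 6.44% of all genes, and 5 lower, against 8.32%. Weakly expressed genes passed the size rule more often. Among genes with a mean of 10 to 100, 8 of 21 members were higher where 19.5% of 3444 genes were, and 6 of 21 were lower where 24.4% were. At a mean of at least 100, 6 of 16 members were higher where 3.87% of 11768 genes were, and 1 of 16 was lower where 5.2% were. The share of lower members was thus near the share of all genes at like levels, and that of higher members was above it. Counts of the groups and lists below are to be read beside these shares. When counts were scaled by library totals instead, which moved the median of all genes examined from -0.0016 to -0.31, the counts were 10 higher and 9 lower.

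**Figure D1:**
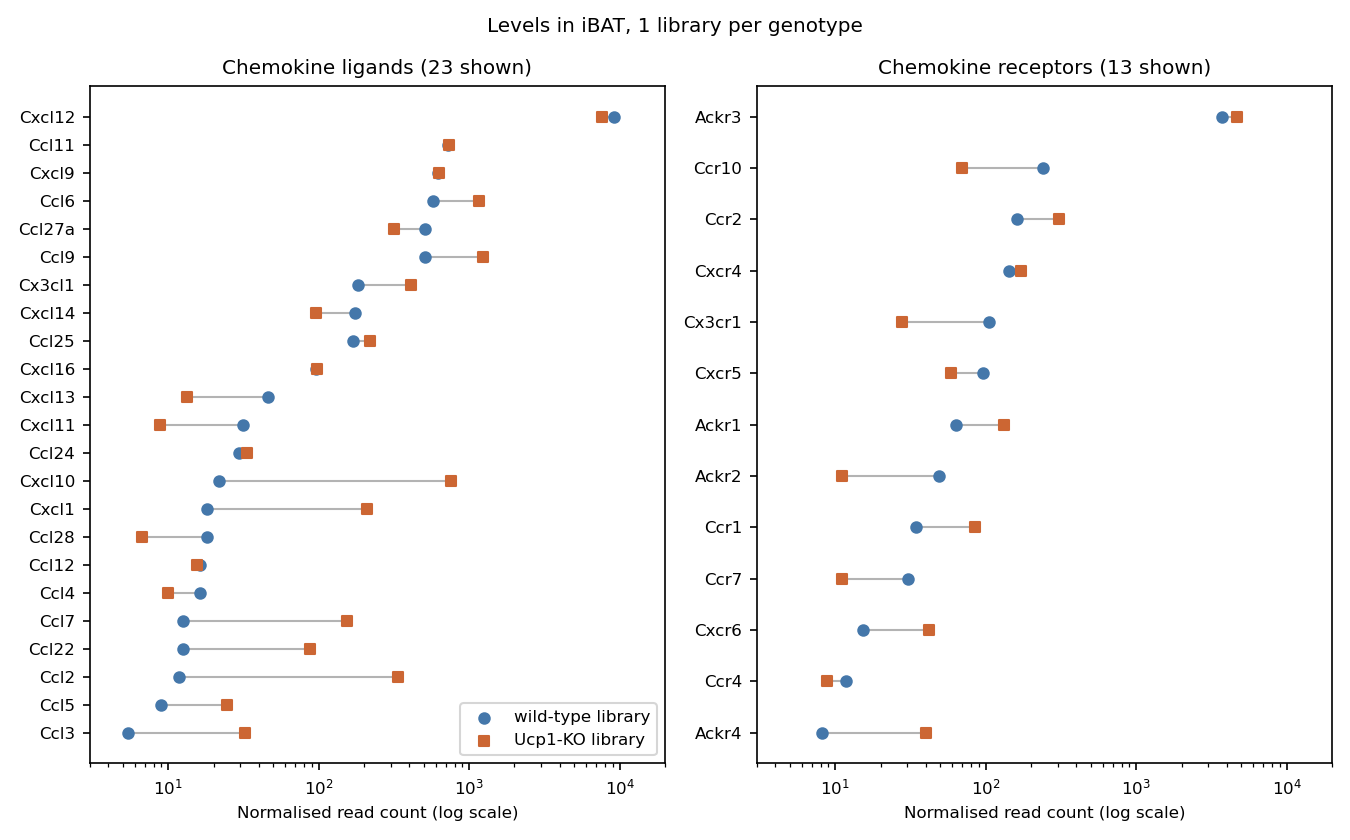
Normalised read counts (log scale) of examined ligands and receptors, with 1 point for each library joined by a line. Cxcl12 and Ackr3 lie far to the right of the other members in both libraries, and Cxcl10 and Ccl2 have the longest lines among the ligands.

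The members with the most counts were a ligand and its receptor. Cxcl12, which retains CXCR4-bearing cells in tissues, had 10239 wild-type and 6871 Ucp1-KO counts, 70.8% and 53.5% of all ligand counts. Its log2 ratio was -0.28 [-0.34, -0.21]. Ackr3, the atypical receptor that scavenges CXCL12, had 4127 and 4219 counts, 78.3% and 81.5% of all receptor counts, with a log2 ratio of 0.33 [0.24, 0.42]. With total counts Cxcl12 was at -0.58 and Ackr3 at 0.025 [-0.064, 0.11], within counting error. Ligands and receptors together were a small part of the libraries. Ligands took 273 CPM of the wild-type and 241 CPM of the Ucp1-KO counts, and receptors took 99.5 and 97.2 CPM. By size factors the log2 ratio was 0.13 for the ligand sum and 0.27 for the receptor sum.

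Levels were compared between genes per kilobase of exon. In the wild-type library the order was led by Cxcl12 at 1106 normalised counts per kilobase, the eosinophil attractant Ccl11 at 650, Ccl6 at 314 and Cxcl9 at 205. In the Ucp1-KO library Cxcl12 stood at 913, Ccl11 at 655, Ccl6 at 640, Ccl9 at 399 and Cxcl10 at 338. Cxcl10 thereby went from rank 17 among the ligands to rank 5, and Ccl2 from rank 16 to rank 6. With the length of the canonical transcript in place of all exon bases, Cxcl10 was at rank 3 and Ccl11 at rank 4 in the Ucp1-KO library, and in the wild-type library Ccl27a was at rank 3 with 560 and Ccl25 at rank 6 in place of 15. The order below Cxcl12 thus depends on the length used. Among receptors, Ackr3 stood at 459 and 578 normalised counts per kilobase, followed in the wild-type library by Ccr10 at 139 and Cxcr4 at 78.7, and in the Ucp1-KO library by Cxcr4 at 94.4 and Ackr1 at 94.0.

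Among the inflammatory ligands, the CXCR3 ligands diverged most. These are Cxcl9, Cxcl10 and Cxcl11, neighbouring interferon-inducible genes whose products attract activated T and NK cells. Cxcl10 (chromosome 5, 92494497 to 92496748, minus strand of GRCm39) had 24 wild-type and 687 Ucp1-KO counts. That is 34.5-fold higher, a log2 ratio of 5.11 [4.32, 6.11] and the highest of any member. Cxcl9 (92469206 to 92475945) had 687 and 569 counts and was level, at 0.03 [-0.20, 0.26]. Cxcl11 (92507403 to 92513344) had 35 and 8 counts, at -1.77 [-3.86, -0.22], but 41.7% of its exon bases lie over another gene on the opposite strand.

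The makeup of this trio therefore differed between the libraries. Cxcl9 made up 92.1% of the trio in wild-type but 45.0% in Ucp1-KO, and Cxcl10 made up 3.22% and 54.4%. Within a library, Cxcl10 had 0.0349 (wild-type) and 1.21 (Ucp1-KO) counts per Cxcl9 count, a log2 difference of 5.11 [4.25, 5.97] that no scaling can change. Cxcl11 relative to Cxcl9 differed by -1.86 [-3.44, -0.27]. Their shared receptor Cxcr3 (X chromosome) had 0 and 18 counts, with a mean just under the minimum for examination. It was 3.69-fold higher in Ucp1-KO against the limit for 0 counts. The lower end of its counting interval was 1.28 on the log2 scale.

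Ligands of CCR2, the main receptor for monocyte recruitment, came next. Ccl2 (chromosome 11, 81926397 to 81928279, plus strand) had 13 wild-type and 301 Ucp1-KO counts, 27.4-fold higher at 4.77 [3.72, 6.23]. Its neighbour Ccl7 had 14 and 139 counts, 11.8-fold higher at 3.56 [2.49, 4.98]. Ccl12, a further mouse CCR2 ligand in the same cluster, had 18 and 14 counts, at -0.06 [-1.72, 1.53]. The 3 genes started from similar counts in wild-type and ended far apart. Together they had 45 wild-type and 454 Ucp1-KO counts. Ccl2 held 28.9% of the former and 66.3% of the latter, Ccl7 held 31.1% and 30.6%, and Ccl12 held 40.0% and 3.08%. Relative to Ccl12 within each library, Ccl2 differed by 4.90 [3.08, 6.72] and Ccl7 by 3.67 [1.86, 5.49] on the log2 scale, whereas Ccl2 and Ccl7 differed from each other by 1.22 [-0.37, 2.82].

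Neutrophil attractants that act through CXCR2 were rare in wild-type. Cxcl1 (chromosome 5, 91039094 to 91040974, plus strand) had 20 wild-type and 190 Ucp1-KO counts, 11.4-fold higher at 3.51 [2.61, 4.65]. Cxcl2 had 0 and 11 counts, 2.26-fold higher against the limit for 0 counts, and the lower end of its counting interval was 0.37 on the log2 scale. Cxcl5 had 0 and 2. Their receptor Cxcr2 had 6 counts in each library, too few to examine, and Cxcr1 had none. Neutrophil markers were scarce in both libraries, 4.99 CPM in sum in wild-type and 5.71 CPM in Ucp1-KO, and the defining markers Ly6g and Retnlg were at 0 in both. Of 7 neutrophil markers examined, 3 were higher and 1 was lower, where 19.5% and 24.4% of all genes with a mean of 10 to 100 were. The median of these markers was -0.14 (Mmp8 at 2.21, Mmp9 at -2.08 and S100a9 at 1.66). The median was 0.50 with no filter and 1.13 at a minimum mean of 50, and their part in these values was not tested.

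Ccl3, Ccl4 and Ccl5, which attract myeloid cells and T cells, were at low counts. Ccl3, made by activated macrophages and lymphocytes, had 6 wild-type and 29 Ucp1-KO counts, at 2.47 [0.74, 5.01], and 35.6% of its exon bases lie over an opposite-strand gene model. Ccl4, its neighbour and close relative, had 18 and 9 counts, at -0.67 [-2.73, 1.08]. The ratio of Ccl3 to Ccl4 within a library differed by 3.27 [0.85, 5.70] on the log2 scale. Ccl5, a T cell and NK cell product, had 10 and 22 counts, at 1.39 [-0.21, 3.31], so its difference was within counting error.

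The eotaxins Ccl11 and Ccl24, which act on eosinophils through CCR3, did not differ beyond counting error. Ccl11 had 803 wild-type and 657 Ucp1-KO counts, at 0.01 [-0.20, 0.22]. Ccl24 had 33 and 30 counts, at 0.16 [-0.95, 1.26]. With total counts both were below 0, Ccl11 at -0.30 and Ccl24 at -0.14, as was Cxcl9 at -0.28, near the shift of all genes. Ccl8, a monocyte and T cell attractant that lies beside Ccl12, had 0 and 10 counts, 2.05-fold higher in Ucp1-KO against the limit for 0 counts. The lower end of its counting interval was 0.17 on the log2 scale and -0.13 with total counts.

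Counts of the 17 inflammatory ligands went from 1681 to 2678 between wild-type and Ucp1-KO, at 0.97 [0.85, 1.10]. Of the 12 examined, 6 were higher and 1 was lower, with a median of 0.77. Ccl11 and Cxcl9 made up most of the sum in wild-type, 47.8% and 40.9%. In Ucp1-KO, Cxcl10 held 25.7%, Ccl11 24.5%, Cxcl9 21.2%, Ccl2 11.2%, Cxcl1 7.09% and Ccl7 5.19%. The sum was thus spread over more genes in the Ucp1-KO library.

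Of 5 other ligands examined, with mixed or less settled roles, 4 were higher and none was lower. Ccl6 and Ccl9 are rodent CCR1 ligands made by myeloid cells. Ccl9 had 566 wild-type and 1119 Ucp1-KO counts, at 1.28 [1.07, 1.49]. Ccl6 had 634 and 1049 counts, at 1.03 [0.82, 1.23]. Their ratio to each other differed by -0.26 [-0.54, 0.03], within counting error. Both were under 2-fold with total counts, Ccl6 at 0.72 and Ccl9 at 0.98.

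Ccl22, a macrophage and dendritic cell product that attracts regulatory T cells through CCR4, had 14 wild-type and 79 Ucp1-KO counts. It was 6.72-fold higher, at 2.75 [1.62, 4.20]. Next to it lies Cx3cl1, the membrane-tethered fractalkine, which had 201 and 371 counts, at 1.18 [0.83, 1.55], or 0.88 with total counts. Ccl17, the other CCR4 ligand in that cluster, had only 2 and 0 counts. Cxcl16, the membrane-tethered ligand of CXCR6, had 107 and 88 counts, at 0.02 [-0.59, 0.62], but 84.8% of its exon bases are shared with genes on the opposite strand.

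Homeostatic ligands mostly had negative ratios. Of 6 examined, none was 2-fold higher, 2 were 2-fold lower and 5 had a negative ratio, with a median of -0.77. Cxcl13, the B cell attractant, had 51 wild-type and 12 Ucp1-KO counts, at -1.75 [-3.36, -0.47]. Cxcl14 had 194 and 87 counts, at -0.85 [-1.41, -0.33]. The sum of the 10 listed homeostatic ligands in the tables went from 11262 to 7461 counts, at -0.29 [-0.35, -0.23], and is set by Cxcl12.

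The CCR10 ligands Ccl27a and Ccl28, known from skin and mucosa, were also below 0. Ccl27a had 567 wild-type and 286 Ucp1-KO counts, at -0.69 [-0.99, -0.39]. It has a near-identical copy, Ccl27b, in another cluster of chromosome 4, and 26.4% of its exon bases lie over Il11ra1 and another gene model. Ccl28 had 20 and 6 counts, at -1.37 [-3.94, 0.52], within counting error. Ccl25, the ligand of the gut-homing receptor CCR9, was the exception among the homeostatic ligands with 187 and 198 counts, at 0.38 [-0.04, 0.81]. Ccl19, its pseudogenes and Ccl21a, Ccl21b and Ccl21d, the lymph node chemokines of CCR7, were listed at 0 in both libraries. These are multi-copy genes, and how reads that match several copies were counted is not given, so the listed 0 is not read as a level.

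**Figure D2:**
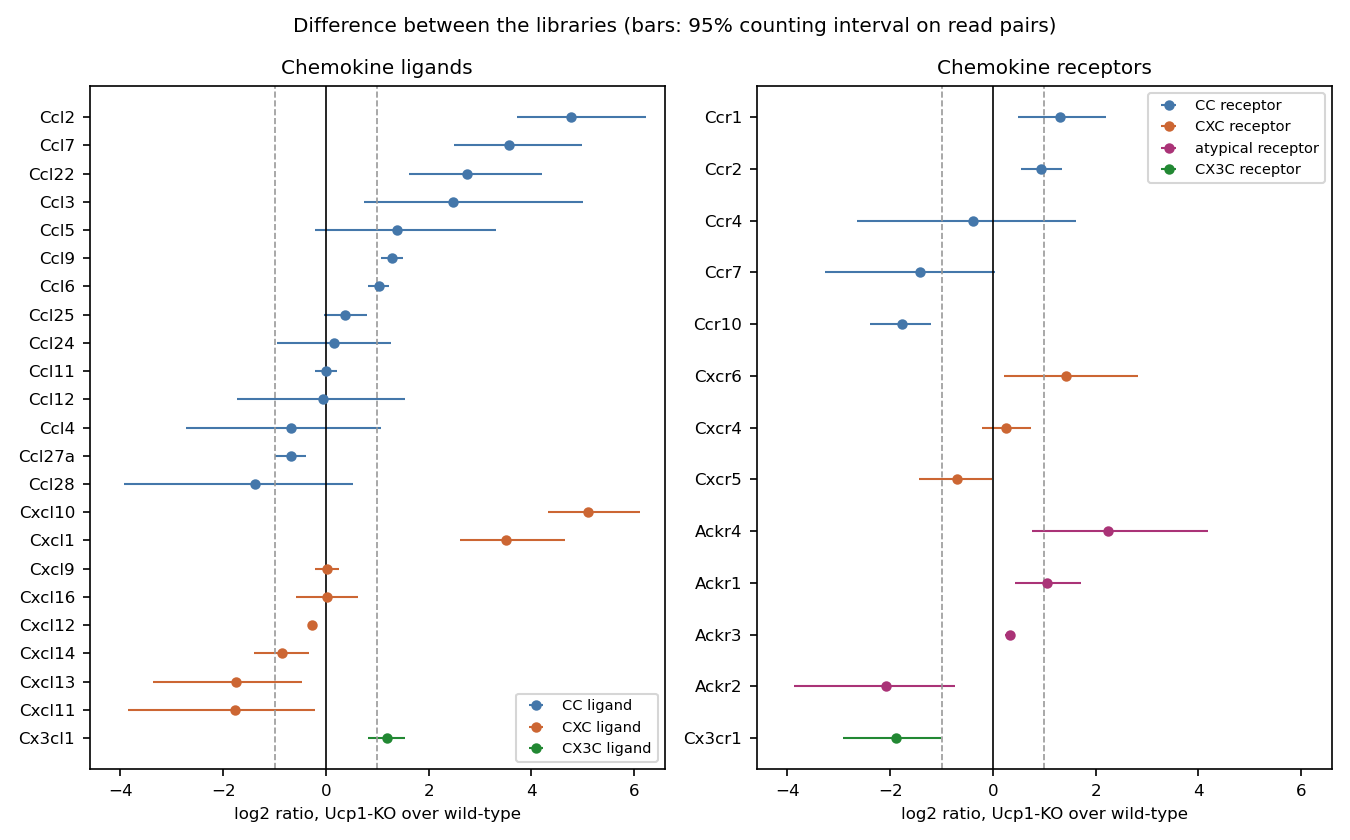
Log2 ratio of Ucp1-KO over wild-type normalised counts for examined members, by family, with 95% counting intervals on read pairs as bars and dashed lines at a 2-fold difference. Cxcl10 at 5.11 and Ccl2 at 4.77 lie farthest to the right, and no receptor exceeds 2.23.

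Receptor ratios spanned -2.08 to 2.23, and ligand ratios -1.77 to 5.11. Of the 14 receptors examined, 4 were higher and 4 lower, with a median of 0.30 against 0.16 for the ligands, of which 10 were higher and 3 lower. Of all genes examined, 7.42% were higher and 9.55% lower. Without the members that share at least 20% of their exon bases with another gene, the receptor median was -0.06 and the ligand median 0.38. At a minimum mean of 50 they were 0.33 and 1.03, so the order of these medians was not stable. The summed receptor counts went from 5269 to 5174, at 0.27 [0.19, 0.35], and were at 0.04 [-0.14, 0.22] without Ackr3. Summed ligand counts went from 14468 to 12845, at 0.13 [0.08, 0.18], and were at 0.80 [0.72, 0.88] without Cxcl12. Each sum thus depended on its most abundant member, Ackr3 at 0.33 and Cxcl12 at -0.28. The receptor sum had the same sign as Ackr3, whereas the ligand sum had the opposite sign to Cxcl12. With total counts the sums were at -0.18 for ligands and -0.034 for receptors.

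Among receptors of myeloid cells, Ccr1 and Ccr2 were above and Cx3cr1 was below the wild-type level. Ccr2, the monocyte receptor of CCL2 and CCL7, had 178 wild-type and 277 Ucp1-KO counts, at 0.94 [0.54, 1.34]. Ccr1, a receptor of myeloid cells, had 38 and 77 counts, at 1.31 [0.49, 2.19]. Cx3cr1, the fractalkine receptor of patrolling monocytes and tissue macrophages, had 116 and 25 counts, at -1.90 [-2.93, -1.02]. Relative to Ccr2 within each library, Cx3cr1 differed by -2.85 [-3.81, -1.89] and Ccr1 by 0.38 [-0.50, 1.26].

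Macrophage and monocyte markers gave the following values beside these receptors. The 14 macrophage markers, including Adgre1 and Cd68, summed to 169 CPM in each library, or a log2 ratio of 0.31 [0.25, 0.37] by size factors. Their median log2 ratio was 0.19, with 4 higher and none lower, where 7.42% and 9.55% of all genes examined were. The largest were Itgam at 2.04, Trem2 at 1.92 and Fcgr1 at 1.76. The 7 monocyte markers summed to 33.8 CPM in wild-type and 26.0 CPM in Ucp1-KO, or -0.07 [-0.22, 0.07] by size factors. Their median was 0.92, with 3 higher (Ms4a4c at 1.78 among them) and Ly6c2 lower at -2.01. Their part in the chemokine differences was not tested.

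Receptors of lymphocytes lay on both sides of 0. Cxcr6, found on T and NK cells, had 17 wild-type and 38 Ucp1-KO counts, at 1.43 [0.23, 2.82], or 1.13 [-0.08, 2.52] with total counts. Cxcr5, the B cell receptor of CXCL13, had 107 and 53 counts, at -0.71 [-1.44, -0.02]. Ccr7, which guides cells to lymph nodes, had 34 and 10 counts, at -1.43 [-3.26, 0.03]. Ccr4 had 13 and 8 counts, at -0.38 [-2.64, 1.62]. Cxcr4, the signalling receptor of CXCL12, was within counting error with 159 and 155 counts, at 0.26 [-0.21, 0.73].

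Ccr10, the receptor of CCL27 and CCL28, was the clearest lower receptor by count. It had 267 wild-type and 63 Ucp1-KO counts (chromosome 11, 101063823 to 101066270, minus strand), at -1.78 [-2.39, -1.22]. T and NK cell markers, 11 of 16 examined, summed to 6.59 CPM in wild-type and 4.83 CPM in Ucp1-KO, or -0.14 [-0.48, 0.20] by size factors. Of those examined, 3 were higher and 3 lower (Cd4 at -1.85, Klrb1c and Cd3e at 1.56). Among all genes with a mean of 10 to 100, 19.5% were higher and 24.4% lower. B cell markers summed to 10.4 and 6.99 CPM, or -0.27 [-0.55, 0.001] by size factors, with 1 of 7 higher and 1 lower (Blk at 1.41, Cr2 at -1.39 and Cd79a at 0.75). Both lists were thus near 0 in the middle, with medians of -0.28 and 0.09, and their part in the receptor values was not tested.

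Atypical receptors differed in direction. Ackr4, which scavenges CCL19, CCL21 and CCL25, had 9 wild-type and 36 Ucp1-KO counts, at 2.23 [0.76, 4.19], with 20.3% of its exon bases over the opposite-strand gene Acad11. Ackr1, the chemokine-binding receptor of venules and erythroid cells, had 70 and 119 counts, at 1.06 [0.44, 1.71], or 0.75 with total counts, and shares 25.7% of its exon bases with Cadm3 on the same strand. Ackr2, which degrades inflammatory CC chemokines, had 54 and 10 counts, at -2.08 [-3.87, -0.74], the lowest ratio of any member examined. Ackr2 relative to Ackr1 differed by -3.20 [-4.70, -1.70] within the libraries. Markers of the vessels where these receptors are found were mostly below 0. The 12 endothelial markers had a median of -0.81, with Emcn at -1.39, Vwf at -1.05 and Egfl7 at -0.92. They summed to 2574 CPM in wild-type and 1274 CPM in Ucp1-KO, or -0.71 [-0.73, -0.69] by size factors. The 6 lymphatic markers had a median of -0.38, with Prox1 at -3.02, Mmrn1 at -1.18, Reln at -0.59, Flt4 at -0.17, Lyve1 at -0.14 and Pdpn at 0.08. Their part in these values was not tested.

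CC and CXC families were then compared. Among CC ligands 7 of 14 were higher and 1 lower, with a median of 0.70, and among CXC ligands 2 of 8 were higher and 2 lower, with a median of -0.13. At a minimum mean of 50 the medians were 1.15 for CC and 0.023 for CXC ligands, and with no filter they were 0.38 and 0.018, so the CXC median had no stable sign. In sum, CC ligand counts went from 2906 to 3948, at 0.74 [0.64, 0.84], and CXC ligand counts from 11361 to 8526, at -0.11 [-0.17, -0.06]. Without Cxcl12 the CXC sum went from 1122 to 1655 counts, at 0.86 [0.70, 1.02], so the contrast of the sums rested on that gene. Both families held strongly higher members, Ccl2 and Ccl7 in CC and Cxcl10 and Cxcl1 in CXC. The lower CXC ligands were Cxcl11 and Cxcl13, and the lower CC ligand, Ccl28, was within counting error.

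Among receptors, 1 of 6 CC receptors was higher and 2 were lower, with a median of 0.01. This median was -0.63 with no filter and 0.67 at a minimum mean of 50, so it had no stable sign. Of the 3 CXC receptors examined, 1 was higher, with a median of 0.26 that was -0.22 at a minimum mean of 50. Summed CC receptor counts went from 600 to 493, at 0.02 [-0.23, 0.26], and CXC receptor counts from 289 to 270, at 0.20 [-0.15, 0.55]. Neither family sum differed beyond counting error, although Ccr1, Ccr2 and Ccr10 did among CC receptors and Cxcr5 and Cxcr6 among CXC receptors. The 4 atypical receptors, all examined, had the highest median of these receptor families at 0.70, with 2 higher and 1 lower. The 2 higher, Ackr4 and Ackr1, share at least 20% of their exon bases with another gene. Without them only Ackr3 at 0.33 and Ackr2 at -2.08 remain, so this order rests on them.

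**Figure D3:**
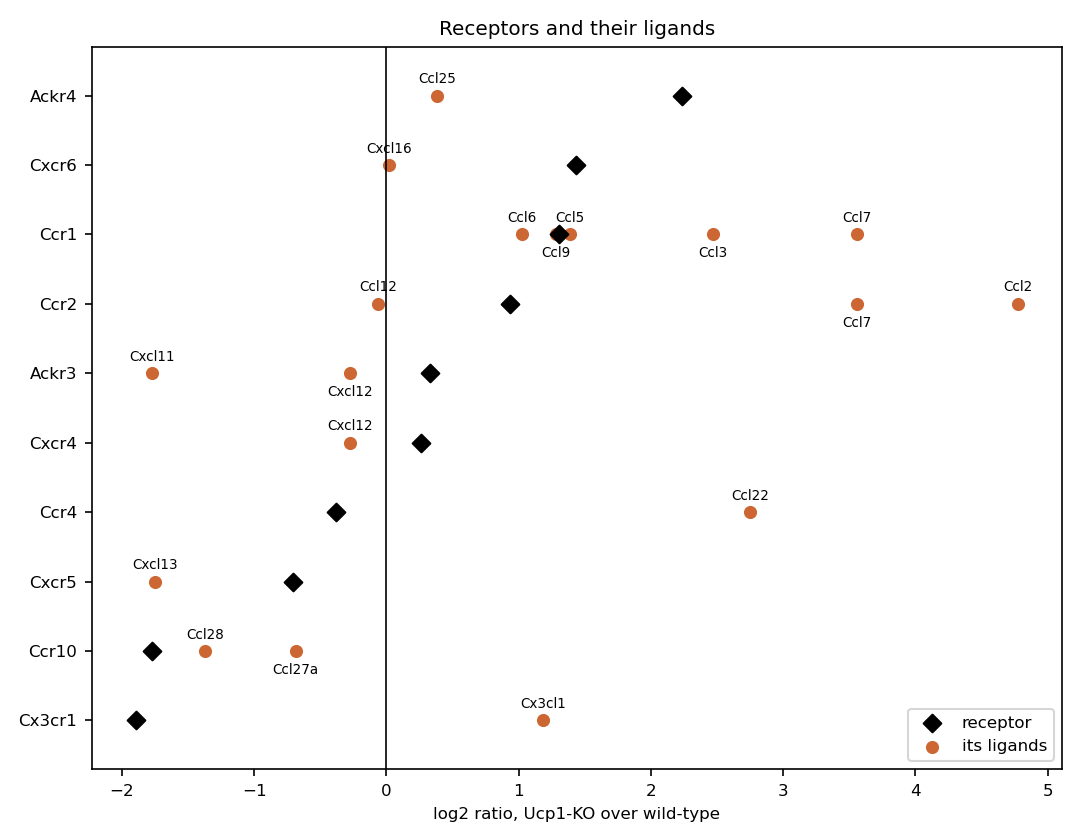
Log2 ratio of each receptor (diamond) and of its ligands (circles) for 10 receptors with a ligand that was also examined, ordered by the receptor's ratio. Ccl2, Ccl22 and Cx3cl1 lie far to the right of Ccr2, Ccr4 and Cx3cr1, and Cxcl11 lies to the left of Ackr3.

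To compare ligands with their receptors, 40 known pairs were compared, of which 18 had both genes examined. The ligand's log2 ratio was above the receptor's beyond counting error in 6 pairs, below it in 5 and within counting error in 7. Both genes were at least 2-fold higher in 5 pairs, all of them Ccr1 with Ccl3, Ccl5, Ccl6, Ccl7 or Ccl9. Both were lower in 1 pair, Ccr10 with Ccl28. Of these ligands, Ccl5 and Ccl28 were within counting error, and Ccl6 and Ccl9 were under 2-fold with total counts. Signs were opposite in 6 pairs. Since pairs share genes, they are not independent of each other.

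The widest gaps lay at the receptors of monocytes, T cells and macrophages. Ccl2 exceeded Ccr2 by 3.90 [2.70, 5.09] on the log2 scale and Ccl7 exceeded it by 2.67 [1.49, 3.86]. Ccl22 exceeded Ccr4 by 3.20 [1.06, 5.34]. Cx3cl1 and its sole receptor Cx3cr1 went in opposite directions, with a gap of 3.10 [2.15, 4.05]. Ccl7 exceeded Ccr1 by 2.29 [0.92, 3.67], and Ccl27a exceeded Ccr10 by 1.10 [0.47, 1.73]. In 5 pairs the ligand lay below its receptor beyond counting error. Cxcl12 was below Ackr3 by a difference of -0.61 [-0.71, -0.50] and below Cxcr4 by -0.54 [-0.99, -0.08]. Cxcl16 lay below Cxcr6 by -1.44 [-2.74, -0.14] and Ccl25 below Ackr4 by -1.92 [-3.46, -0.37]. For Cxcl11 and Ackr3 the difference was -2.16 [-3.73, -0.59]. These are differences of RNA and say nothing of the amounts of protein that meet.

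**Figure D4:**
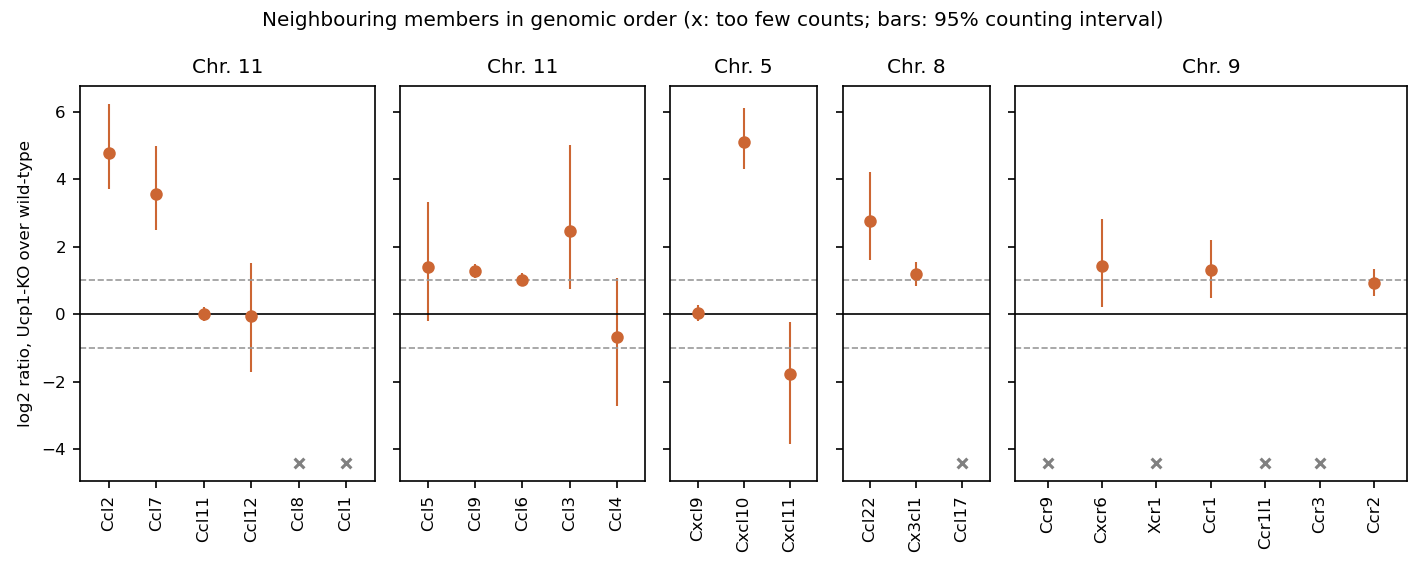
Log2 ratio of neighbouring members in genomic order in 5 gene clusters, with 95% counting intervals on read pairs, dashed lines at a 2-fold difference and crosses for members with too few counts. Within the cluster of Ccl2 and within that of Cxcl10, genes at 3.56 or more lie beside genes at or below 0.03.

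Many chemokine genes arose by tandem duplication and lie side by side. In GRCm39, 64 members were placed and 44 lay within 200 kb of another, in 11 clusters. The cluster on chromosome 11 from 81926397 to 82196516 holds Ccl2, Ccl7, Ccl11, Ccl12, Ccl8 and Ccl1, and of 4 examined only Ccl2 and Ccl7 were higher. The second on that chromosome, from 83416602 to 83555509, holds Ccl5, Ccl9, Ccl6, Ccl3 and Ccl4, of which all but Ccl4 were at least 2-fold higher. Ccl5 was within counting error, however, and Ccl6 and Ccl9 were under 2-fold with total counts. The intervals of Ccl12 and Ccl4 held 2-fold differences in both directions. Which cluster differed more evenly from wild-type therefore cannot be told from these counts.

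On chromosome 5, the group from 92469206 to 92513344 held a higher, a level and a lower gene, Cxcl10, Cxcl9 and Cxcl11. The nearby group from 90907186 to 91053797, which includes Cxcl1 and Cxcl2, had Cxcl1 as its only gene examined. On chromosome 8, Ccl22 and Cx3cl1 (95471226 to 95538664) were both higher but by unequal amounts, with a difference of 1.61 [0.40, 2.82]. In the receptor cluster on chromosome 9, Cxcr6 and Ccr1 were at least 2-fold higher and Ccr2 had a positive ratio below that size. Cx3cr1 lies elsewhere on that chromosome, from 119877749 to 119898945, and was lower.

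**Figure D5:**
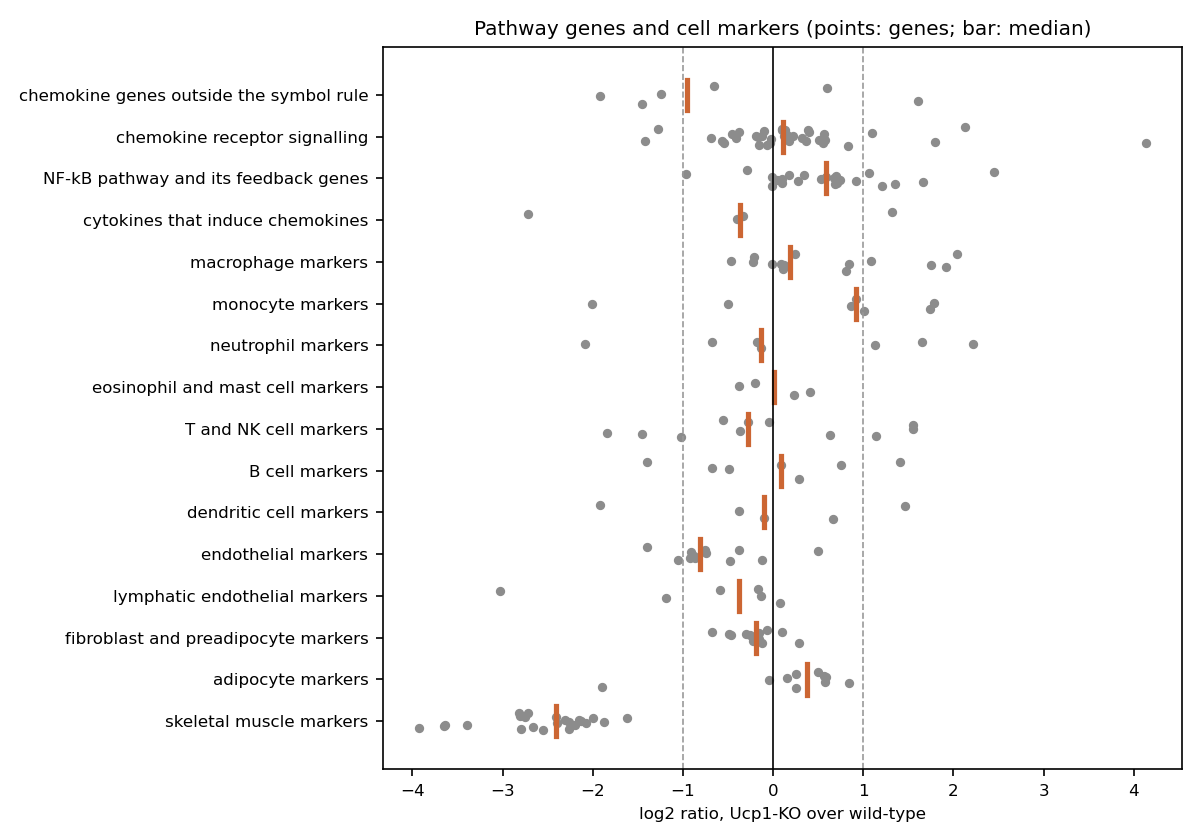
Log2 ratio of single genes (points) and the median (bar) for lists of chemokine-related genes and cell type markers, with dashed lines at a 2-fold difference. NF-kB genes lie mostly above 0 with a median of 0.59, and skeletal muscle markers lie below -1 with a median of -2.40.

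Genes that act up- and downstream of chemokines gave the context. Of 23 NF-kB pathway and feedback genes, 5 were higher, none was lower and 19 had a positive ratio, with a median of 0.59. Of all genes examined, 7.42% were higher, 9.55% were lower and 7592 of 15212 had a positive ratio. Tnfaip3, a feedback inhibitor of NF-kB, had 247 wild-type and 1101 Ucp1-KO counts, at 2.45 [2.17, 2.75]. Nfkbie was at 1.66 and Relb at 1.36. Of 16 cytokines that induce chemokines, 4 could be examined. Csf1, the macrophage growth factor, had 827 and 1674 counts, at 1.32 [1.15, 1.49], and Il18 had 60 and 7, at -2.72 [-4.93, -1.21], while Ltb was at -0.40 and Il33 at -0.34. Il6, Ifnb1, Ifng, Il17a, Il4, Csf2 and Lta were listed at 0 in both libraries. Tnf, with a mean under the minimum for examination, had 18 and 2 counts, at -2.62 [-8.32, -0.02]. It was named after its value was seen. Il13, Il1a, Il1b and Csf3 had at most 10 counts in either library.

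Signalling genes downstream of chemokine receptors were mostly level, with a median of 0.11. Of 36 examined, 4 were higher and 2 lower, where 7.42% and 9.55% of all genes examined were. Rgs1, which shortens signalling of chemokine receptors in leukocytes, had 6 wild-type and 93 Ucp1-KO counts, at 4.13 [2.62, 6.58]. Ptk2b, a kinase activated by these receptors, had 1275 and 4534 counts, at 2.13 [2.00, 2.26], and Pik3r5, a regulatory subunit of the leukocyte PI3-kinase, was at 1.80. The catalytic subunit Pik3cg of the same enzyme was at -1.27 [-2.17, -0.47], so the subunits differed in direction. Pik3cg was named after its value was seen. Other cell lists had medians from -0.19 to 0.37. The 5 dendritic cell markers had a median of -0.10 (Flt3 at -1.92, Itgax at 1.47 and Cd209a at 0.66), and 4 eosinophil and mast cell markers had a median of 0.01 (Mcpt4 at 0.41, Tpsb2 at -0.38 and Kit at 0.23). The 12 fibroblast and preadipocyte markers had a median of -0.19 (Ly6a at -0.68, Lum at -0.49 and Dpt at -0.47), and 10 adipocyte markers had a median of 0.37 (Retn at -1.90, Adipoq at 0.84 and Lpl at 0.59). The adipocyte markers, which check the labelled tissue, were abundant in both libraries, at 16131 CPM in wild-type and 16788 CPM in Ucp1-KO.

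The remaining members had few counts. Ccr3, the eotaxin receptor, had 8 wild-type and 0 Ucp1-KO counts, within counting error. Ccr9 had 14 and 6 counts. Xcr1, Cxcl17 and Ccl27b had at most 4 counts in either library. Listed at 0 in both were also Ccl1, Ccl20, Ccl26, Cxcl3, Cxcl15, Xcl1, Ccr1l1, Ccr6 and Ccr8. At this depth these genes could not be compared.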

How the data were processed

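Interscapular brown adipose tissue of wild-type and Ucp1-KO mice was measured by RNA sequencing, with 1 library per genotype grouped by the genotype label. The deposited values are whole-number counts per gene that the authors made with featureCounts. The submitters' processing notes name Trim Galore, HISAT2 and build mm39. The annotation, strand setting and treatment of reads that match several places are not given in the sources used here, so counts of overlapping genes and near-identical copies are uncertain. The RNA kit and directional poly(A) libraries are per the labels.

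Size factors came from DESeq2 1.42.0 (1.11 and 0.901) and, as an alternative, edgeR 4.0.16 in R 4.3.3. Further steps used Python 3.11.15, scipy 1.17.1 and matplotlib 3.10.9. Genes needed a mean normalised count of at least 10, ratios a pseudocount of 0.5, and the size rule was a log2 ratio of 1. Counts 1 to 10 were even in 70.7% of wild-type and 73.4% of Ucp1-KO genes, a pattern that counting both mates of a pair gives, so intervals were taken on counts divided by 2, which widens them. Ratios have exact conditional binomial intervals (Clopper-Pearson), and differences of 2 ratios have delta-method intervals. They describe counting error alone, and without molecular identifiers reads may be copies of 1 molecule. The scripts were tested on simulated data. Positions are from GENCODE mouse release 39, joined by symbol, and promoters from RefSeq.

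All members with a mean of at least 10 were named with their counts, others from 6 counts in a library, and from each other list the 3 largest ratios, or all genes of lists of up to 6. The results of 1 member and 1 marker gene are not reported here by name. Members, lists and pairs were chosen with earlier results of these data known. Alternatives were other scaling, pseudocount, filters, size rules and intervals on counts. Leaving out members with shared exon bases and the canonical transcript length were chosen after seeing the data.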

Additional observations from a re-analysis of the deposited data

How the results depend on the processing

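With 1 library per genotype there was no replicate to leave out. No paired analysis was possible because only 1 library was made for either genotype. Of 73 values for the main results under an alternative, 67 stayed within the main interval or, as a count, within 1.5 times. For a median, this interval ran between the medians of the genes' lower and upper limits. It is not the counting error of the median. Exceptions were 7 members higher at a log2 ratio of at least 1.5, 11 lower with no filter, 2 lower at a minimum mean of 50, a CXC receptor median of -0.22 at that minimum, and, with total counts, summed ligands at -0.18 and summed receptors at -0.034, both reversed. Total counts also reversed the median of the macrophage markers, to -0.12. Inside such intervals, total counts took the medians of ligands to -0.14, receptors to -0.0096, CC receptors to -0.28 and CXC receptors to -0.044. The ligand median was 0.16 over 23 genes but 1.03 over the 15 with a minimum mean of 50, so it was not stable. Of 215 values for single members 208 stayed within error. Intervals on counts as deposited, in place of read pairs, put 28 of 37 members beyond counting error in place of 24, adding Ccl25, Ccl28, Ccl5 and Ccr7. Depth limits members such as Ccl4, Ccl5, Ccl12, Ccl24, Ccl28, Ccr4 and Ccr7, whose intervals hold both 0 and differences of more than 2-fold.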

Other observations

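Several chemokine and chemoattractant genes fall outside the symbol rule. Of 6 such genes, 1 was at least 2-fold higher in Ucp1-KO and 3 were lower (median -0.95 on the log2 scale). The platelet chemokines went apart: Ppbp had 48 wild-type and 10 Ucp1-KO counts, at -1.92 [-3.71, -0.54], and Pf4 had 251 and 309, at 0.60 [0.25, 0.95]. The chemerin system had a negative ratio for each gene listed. Rarres2, which encodes the chemoattractant chemerin and is made by adipocytes, had 1058 and 546 counts, at -0.65 [-0.87, -0.44]. Its receptor Cmklr1 had 553 and 189 counts, at -1.25 [-1.60, -0.91], and the chemerin-binding receptor Ccrl2 had 142 and 42, at -1.45 [-2.23, -0.74]. The G protein-coupled receptor Gpr35 had 23 and 58 counts, at 1.61 [0.60, 2.76].

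The formyl peptide receptor Fpr1 had 0 and 18 counts, 3.69-fold higher in Ucp1-KO against the limit for 0 counts. The lower end of its counting interval was 1.28 on the log2 scale. Rgs2, a regulator of G protein signalling, had 5426 and 1647 counts, at -1.42 [-1.53, -1.31]. Both were named after their values were seen.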
